A study of Mus musculus with 8 samples.

Results

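Phosphate and mineralisation regulators were followed here as 7 genes, Phex, Phospho1, Alpl, Enpp1, Ank, Slc20a1 and Slc20a2, chosen by name for their roles in phosphate and pyrophosphate handling in bone mineral, out of 55536 genes in the expression table. All 7 were found, and all 7 were among the 16647 genes with enough reads to be tested. The tissue was the posterior palatal shelf, epithelium and mesenchyme together, of mouse embryos at E14.5, dissected before elevation. There were 4 mutant libraries, of genotype Yapfl/fl;Tazfl/fl;Col2Cre, and 4 control libraries, of genotype Yapfl/fl;Tazfl/fl. Both groups therefore carried floxed alleles of Yap and Taz (Wwtr1), and only the mutants carried the Cre. Col2Cre is a transgene in which Col2a1 regulatory sequence drives Cre recombinase, so deletion takes place in cells that use that sequence, or whose ancestors did, and other cells of the shelf keep both genes. No label says that the libraries came from different embryos, so p-values measure the spread between these libraries, which may be technical. They are called here mutants 1 to 4 and controls 1 to 4.

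Bone mineral is calcium phosphate, and its growth depends on the local balance between inorganic phosphate, which builds it, and pyrophosphate, which blocks it. Osteoblasts bud matrix vesicles in which PHOSPHO1 frees phosphate from phosphocholine, while the tissue-nonspecific alkaline phosphatase encoded by Alpl breaks down pyrophosphate outside the cell. ENPP1 makes pyrophosphate from extracellular ATP, ANK moves ATP and pyrophosphate out of the cell, and the sodium-phosphate cotransporters PiT-1 (Slc20a1) and PiT-2 (Slc20a2) carry phosphate in. PHEX is a cell-surface peptidase of osteoblasts and osteocytes whose loss causes phosphate wasting. Part of the posterior palatal mesenchyme later ossifies as the palatine bone.

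The recovered depth was 29025089 to 32437977 reads per library. Yap1 had 8745, 8228.5, 8221.2 and 8656.1 normalised counts in mutants, against 9094.6, 9459.2, 10086.2 and 9799.8 in controls, and Wwtr1 averaged 4007 ± 397 in mutants and 4879 ± 352 in controls (SD, n = 4 each). Yap1 was thus lower in every mutant library, while Wwtr1 overlapped, and neither passed the test (log2 differences -0.18 and -0.29). The deletion concerns exons that the table does not resolve. Xist had 840.4 normalised counts in mutant 2 and at most 17.4 in any other library. The most abundant gene, the predicted gene Gm42418, held 1.56% to 2.48% of counts in mutants and 4.22% to 5.66% in controls, and the part of this difference in the results below was not tested. Osteoblast markers were present, with Runx2, Sp7, Col1a1 and Ibsp detected in every library, but the late marker Bglap was at 0 in all 8. Among the marker lists, 9 of 9 tested osteoblast genes had a lower mean in mutants, as did 8 of 9 chondrocyte genes, 9 of 10 endothelial genes and 2 of 3 osteoclast genes. Lower means were found for 0 of 10 epithelial, 0 of 8 erythroid, 2 of 8 macrophage, 3 of 8 skeletal muscle and 1 of 8 Schwann cell genes. No gene of these lists, which were chosen with earlier results of these data known, passed the test. In bulk tissue, fewer cells of a type and less RNA per cell cannot be told apart.

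Of the 7 genes, 3 had a lower mean in mutants (Phex, Phospho1 and Alpl) and 4 a higher mean (Enpp1, Ank, Slc20a1 and Slc20a2). None of the 7 passed the limma test at a Benjamini-Hochberg adjusted p of 0.05 over all genes, a threshold that 0.024% of tested genes passed. The unadjusted limma p was under 0.05 for 2 of the 7, Phex and Phospho1, against 6.57% of all tested genes. On the recovered reads, edgeR called 0 of the 7 and 0.03% of genes, and DESeq2 called 2 of the 7, Phex and Phospho1, and 0.221% of genes. The groups did not overlap for 2 of the 7, against 3.77% of tested genes. In 1 of the 7, Phospho1, every mutant lay below every control, which held for 1.91% of tested genes, and in 1 of the 7, Slc20a2, every mutant lay above every control, which held for 1.86%. The median log2 difference of the 7 was 0.05, and over all genes tested it was -0.00015. The 7 were chosen with earlier results of these data known, so their counts beside these shares are a description only.

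**Figure D1:**
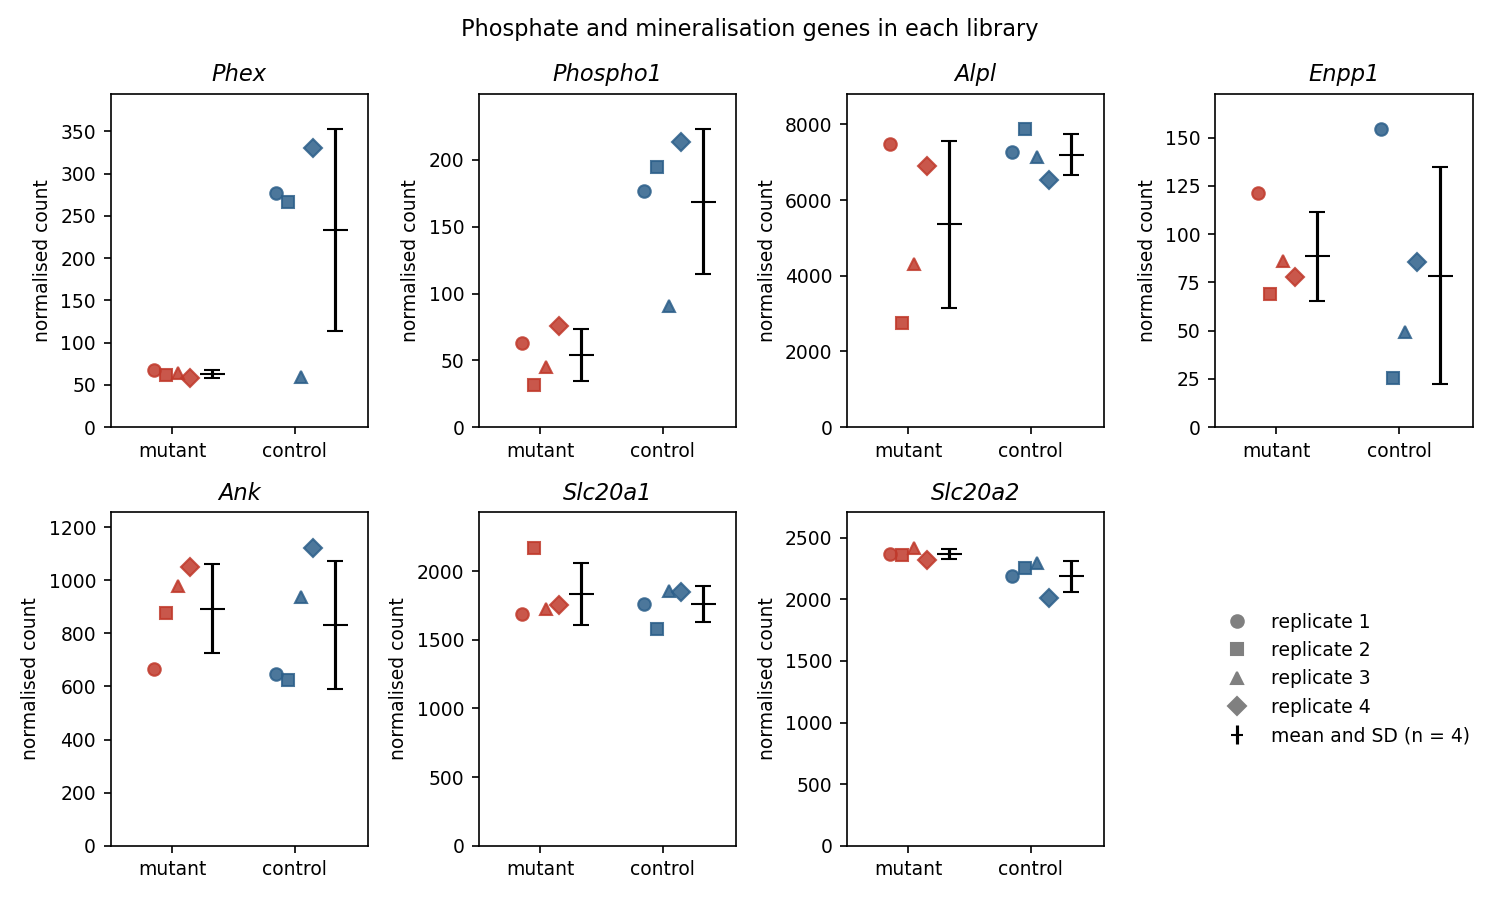
Normalised counts (y axes, linear, each from 0) of the 7 genes in 4 mutant and 4 control libraries (points, with marker shape giving the replicate; bars are mean and SD). Phospho1 was below all controls in every mutant, Phex was low in all mutants and in control 3, and Alpl was low in mutants 2 and 3 only.

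For Phex, Phospho1 and the upstream-most listed start of Alpl, the 250 bases before the start are shown because these 3 genes had the lower mutant means. They come from RefSeq on GRCm38.p6, written 5′ to 3′ on the strand of the gene, with CpG dinucleotides in capitals.
Phex, chrX:157415287-157415536, minus strand: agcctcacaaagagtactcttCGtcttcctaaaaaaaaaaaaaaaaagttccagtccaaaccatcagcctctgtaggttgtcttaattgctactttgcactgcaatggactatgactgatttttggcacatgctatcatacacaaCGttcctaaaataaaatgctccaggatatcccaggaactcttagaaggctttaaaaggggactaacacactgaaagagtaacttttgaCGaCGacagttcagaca
Phospho1, chr11:95824250-95824499, plus strand: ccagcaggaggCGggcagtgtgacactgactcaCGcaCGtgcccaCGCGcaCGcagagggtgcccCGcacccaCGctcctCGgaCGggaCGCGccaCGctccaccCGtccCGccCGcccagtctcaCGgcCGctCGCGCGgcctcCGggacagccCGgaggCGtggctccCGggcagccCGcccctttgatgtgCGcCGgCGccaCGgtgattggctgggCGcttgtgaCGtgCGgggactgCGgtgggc
Alpl, chr4:137796385-137796634, minus strand: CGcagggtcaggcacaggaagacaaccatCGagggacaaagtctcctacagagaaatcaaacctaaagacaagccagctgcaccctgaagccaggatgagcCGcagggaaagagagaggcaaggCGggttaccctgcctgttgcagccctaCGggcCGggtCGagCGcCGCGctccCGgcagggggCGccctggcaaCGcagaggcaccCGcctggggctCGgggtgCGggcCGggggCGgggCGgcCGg
The Phex window held 4 CpG and was 39.2% G or C, and 44.4% of the 32851 mouse promoter windows of the same length had as many CpG or fewer. The Phospho1 window held 34 CpG at 75.6% G or C, and 97% of windows had as many or fewer, and the Alpl window held 20 CpG at 68.4%, against a median of 6 over all promoters. The second listed start of Alpl, downstream of the first, had 4 CpG, as many as Phex, at 56% G or C. The core letters bound by RUNX factors, TGTGGT, and those bound by the TEAD partners of YAP and TAZ, GGAATG, were searched on both strands. Neither was found in these 3 windows, while 14% of all promoters held the RUNX letters and 12.6% the TEAD letters. Only these exact letters were searched, and variants of either core were not. TGCGGT, which differs from TGTGGT in 1 letter, stands near the end of the Phospho1 window. Its share of all promoters was not counted. Among the 8 listed starts of 6 of the 7 genes, TGTGGT stood in the windows of Enpp1, 144 bases before the start, and of 1 Slc20a1 start, 77 bases before it. GGAATG stood 3 times in the window of the other Slc20a1 start. These are matches of letters and not binding sites.

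Phex (ENSMUSG00000057457, chrX:157162075-157415312, minus strand, GRCm38) encodes the peptidase of the phosphate axis. It had 68.1, 61.5, 63.7 and 57.7 normalised counts in mutants, against 276.9, 266.5, 59.5 and 330 in controls. The mutants lay close together, 3 controls lay far above them, and control 3 lay among the mutants, so the groups overlapped. The mean was 62.8 ± 4.34 in mutants and 233 ± 119 in controls (SD, n = 4 each). On the log2(normalised count + 1) scale the difference was -1.63 (SE 0.454, 95% interval -2.62 to -0.64), with a limma adjusted p of 0.751 and an exact two-sided permutation p of 0.114. The smallest p that the 70 ways of dividing 4 from 4 libraries can give is 0.0286. Without control 3 the difference was -2.19 and the limma adjusted p 0.00437, and this fit called 0.0661% of genes. DESeq2 on the recovered reads gave -1.90 with an adjusted p of 0.00232.

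The sample titles begin with a number whose meaning the labels do not give, and 2 of these numbers occur in both groups. Among libraries numbered 3602, Phex averaged 62.6 in the 2 mutants and had 59.5 in the 1 control, a log2 difference of 0.07. Among those numbered 2057 it had 57.7 in the 1 mutant and averaged 298 in the 2 controls, a difference of -2.34. The difference in Phex was therefore absent within 1 number and present within the other. Control 3 was the only control numbered 3602. Mutant 2, the library with Xist, lay within the range of the other mutants for this X-linked gene.

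Phospho1 (ENSMUSG00000050860, chr11:95824499-95832140, plus strand) encodes the phosphatase that releases phosphate from phosphocholine and phosphoethanolamine inside matrix vesicles. It had 63.2, 31.2, 45.3 and 75.9 normalised counts in mutants, against 176.8, 194.3, 90.3 and 213.1 in controls. All mutants lay below all controls, the nearest control being control 3. The mean was 53.9 ± 19.7 in mutants and 169 ± 54.3 in controls (SD, n = 4 each), a log2 difference of -1.63 (SE 0.354, 95% interval -2.41 to -0.86). The limma adjusted p was 0.576, and the exact two-sided permutation p was 0.0286, the smallest possible here. DESeq2 gave -1.65 with an adjusted p of 0.00391. The difference was -1.24 among the libraries numbered 3602 and -1.41 among those numbered 2057.

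The counting of Phospho1 is uncertain. Of its 2029 exon bases in the GENCODE annotation, 1818 (89.6%) also lie in exons of Zfp652, a zinc finger gene on the same strand, and 1708 (84.2%) lie in exons of Abi3, an adaptor gene on the opposite strand. Only 211 bases belong to no other gene, and no source used here gives the strand setting of the counting. Zfp652 averaged 4338 ± 198 normalised counts in mutants and 4883 ± 173 in controls, with all mutants below all controls (log2 difference -0.17, limma adjusted p = 0.754). Abi3 averaged 174 ± 32.2 in mutants and 228 ± 34.4 in controls (log2 difference -0.40). Both neighbours had smaller differences than Phospho1. Whether reads were shared among the 3 genes was not tested. No exon base of Phex, Alpl or Enpp1 is shared with another annotated gene.

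Alpl (ENSMUSG00000028766, chr4:137741733-137796384, minus strand) encodes the alkaline phosphatase that removes pyrophosphate. It had 7471.1, 2758, 4305 and 6890.1 normalised counts in mutants, against 7278, 7870.9, 7130.4 and 6526.6 in controls. Mutants 2 and 3 lay below every control, while mutants 1 and 4 lay within the control range. The mean was 5356 ± 2212 in mutants and 7201 ± 552 in controls (SD, n = 4 each), a log2 difference of -0.53 (SE 0.245, 95% interval -1.07 to 0.0047). The limma adjusted p was 0.754 and the exact two-sided permutation p 0.229. Without mutant 2 the difference was -0.25. Among the libraries numbered 3602, which include mutants 2 and 3, it was -1.05, and among those numbered 2057 it was -0.057. The other mouse alkaline phosphatase genes, Alpi, Alppl2 and Akp3, were at 0 in all libraries, so Alpl was the alkaline phosphatase detected in this tissue.

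Mutants 2 and 3, the lowest libraries of Phospho1 and Alpl, were also those with the lowest osteoblast markers. The mean log2 level of the osteoblast list, relative to the control mean, was -0.60, -1.57, -1.01 and -0.53 in mutants 1 to 4, against 0.37, 0.08, -0.46 and 0.00 in controls 1 to 4. Its lowest mutant was mutant 2, the lowest library for both genes, and its lowest control was control 3, the lowest for Phex and Phospho1. Neither Phex nor Alpl followed the list throughout. Phex had 68.1, 61.5, 63.7 and 57.7 normalised counts in mutants 1 to 4, lowest in mutant 4, the highest mutant of the list. Control 3, above every mutant on the list, had 59.5 for Phex. Mutants 1 and 4 and control 3 also lay below the control mean of the list. There Alpl had 7471.1, 6890.1 and 7130.4 normalised counts, within its control range of 6526.6 to 7870.9. The summed level of the list ranged from 121096 to 195679 normalised counts in mutants and from 212318 to 242232 in controls. Most of it was Col1a1, with a mean of 152026 in a mean sum of 166126 in mutants, and 193799 in 226867 in controls. Col1a1 by itself overlapped, at 113410 to 178482 in mutants and 168705 to 219318 in controls. Its highest library was control 3, the lowest control by mean log2 level, so the sum does not follow that level. By mean log2 level the chondrocyte list had a similar pattern. It was at 0.31, -0.99, -0.95 and -0.59 in mutants 1 to 4, against 0.98, -0.22, -0.84 and 0.07 in controls 1 to 4. Mutant 2 and control 3 were again the lowest of their groups by this mean. In control 3 the mean includes Matn1 at 0 normalised counts. Control 3 was not low for Col2a1, with 19544.4 normalised counts against 13759.4 in control 4. The list summed to 14015 to 30826 normalised counts in mutants and 24684 to 40962 in controls. The part of either list in the differences of Phex, Phospho1 and Alpl was not tested. The endothelial list, a cell type that also uses Alpl, summed to 14597 to 19061 in mutants and 18986 to 21115 in controls, and its part was not tested either.

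Enpp1, Ank and the cotransporters gave smaller or less regular differences. Enpp1 (ENSMUSG00000037370, chr10:24637914-24712159, minus strand), which encodes the pyrophosphate-making ectoenzyme, had 121.6, 69.1, 85.9 and 77.9 normalised counts in mutants, against 154.4, 25.4, 49.2 and 85.4 in controls. The controls held both the highest and the lowest library. The mean was 88.6 ± 23.0 in mutants and 78.6 ± 56.2 in controls (SD, n = 4 each), with a log2 difference of 0.43 (SE 0.473, 95% interval -0.60 to 1.46). The limma adjusted p was 0.890 and the exact two-sided permutation p 0.486. The difference was 0.85 without control 1 and -0.0010 without control 2, so single controls set its size.

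Ank (ENSMUSG00000022265, chr15:27466677-27594909, plus strand), the ATP and pyrophosphate exporter, had 666.1, 876.4, 979.3 and 1049.9 normalised counts in mutants, against 646.3, 623.8, 935.7 and 1122.5 in controls. The control range enclosed the mutant range. The log2 difference was 0.13 (SE 0.195, 95% interval -0.30 to 0.55), with a limma adjusted p of 0.926 and an exact two-sided permutation p of 0.686. It was 0.28 without control 4 and 0.0022 without control 2, and -0.014 and 0.33 within the libraries numbered 3602 and 2057.

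Slc20a1 (ENSMUSG00000027397, chr2:129198764-129211616, plus strand), encoding PiT-1, had 1686.2, 2171.2, 1728 and 1753.9 normalised counts in mutants, against 1758, 1580.4, 1853.9 and 1851.1 in controls. Mutant 2 stood above all other libraries and the remaining mutants lay within the control range. The log2 difference was 0.05 (SE 0.0909, 95% interval -0.14 to 0.25), with a limma adjusted p of 0.934 and an exact two-sided permutation p of 0.714. Without mutant 2 it was -0.029. The interval leaves room for a change of up to about 0.25 on the log2 scale.

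Slc20a2 (ENSMUSG00000037656, chr8:22476788-22569612, plus strand), encoding PiT-2, had 2365.9, 2357.6, 2419.8 and 2322.3 normalised counts in mutants, against 2187.1, 2258.9, 2298.1 and 2013.2 in controls. Every mutant lay above every control, by a small margin, and the mutants lay closer together than the controls. The mean was 2366 ± 40.3 in mutants and 2189 ± 126 in controls (SD, n = 4 each). The log2 difference was 0.11 (SE 0.0612, 95% interval -0.020 to 0.25), with a limma adjusted p of 0.773 and an exact two-sided permutation p of 0.0286. It was 0.06 within the libraries numbered 3602 and 0.12 within those numbered 2057.

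**Figure D2:**
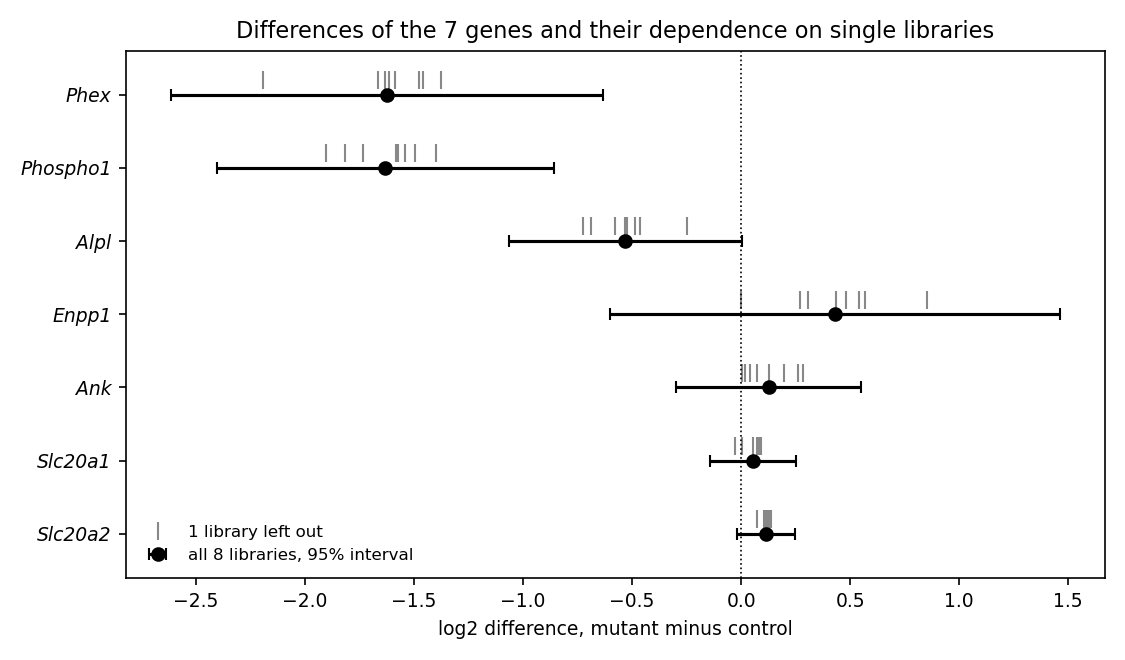
Log2 difference, mutant minus control, of each gene (points) with its 95% limma interval (bars) and the values with 1 library left out (grey ticks). Intervals of Phex and Phospho1 lay below 0, those of the other genes included 0, and Phex ranged from -2.19 to -1.38 over the libraries left out.

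Levels of different genes were compared per kilobase of merged exon. Over all 8 libraries the order was Alpl at 1557 ± 444 normalised counts per kilobase, Slc20a2 at 366 ± 20.6, Slc20a1 at 322 ± 31.3, Ank at 239 ± 53.8, Phospho1 at 54.8 ± 35.5, Phex at 23.5 ± 19.1 and Enpp1 at 8.15 ± 3.91 (SD, n = 8 each). Alpl stood above all others in every library, at 684 to 1852 per kilobase in mutants and 1618 to 1952 in controls. The ranges of Slc20a2 and Slc20a1 overlapped, at 324 to 389 and 283 to 389 over all 8 libraries, and so did those of Slc20a1 and Ank, of Phospho1 and Phex, and of Phex and Enpp1. Ank and Phospho1 did not overlap. In mutants Phex averaged 9.97 per kilobase and Enpp1 8.64, and in controls Phex averaged 37.1 and Enpp1 7.66. The Phospho1 value, and so its place in this order, depends on a length that is mostly shared with other genes. Only 211 of its 2029 exon bases are unshared, and its place per unshared base was not examined.

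Ratios within a library do not depend on its scaling. How many other gene pairs would separate the groups was not counted. Phospho1, whose count is uncertain, already had groups without overlap by itself. The log2 ratio of Phospho1 to Alpl was -6.89 to -6.47 in mutants and -6.30 to -4.94 in controls, with no overlap and a difference of -1.12. That of Phex to Alpl was -6.90 to -5.49 in mutants and -6.90 to -4.31 in controls, overlapping through control 3. The ratio of Alpl to Enpp1, the enzymes that remove and make pyrophosphate, was 5.32 to 6.47 in mutants and 5.56 to 8.28 in controls. That of Slc20a1 to Slc20a2 was -0.49 to -0.12 in mutants and -0.52 to -0.12 in controls, and that of Enpp1 to Ank was -3.75 to -2.45 in mutants and -4.62 to -2.07 in controls. These 3 overlapped widely.

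The 4 genes that spanned more than 1 log2 unit over the 8 libraries were compared with 12935 other genes, by the root mean square distance of log2 levels centred on each gene's mean. The gene likest Alpl was Runx2, the transcription factor of the osteoblast lineage, at 0.0471, followed by Fam81a, St6gal2, Aspn and Hs3st3b1 at 0.121 to 0.146. Runx2 had 4266, 1516.2, 2254.8 and 3857.7 normalised counts in mutants, against 4298.7, 4285.4, 3952 and 3631.6 in controls. The log2 ratio of Alpl to Runx2, chosen after its values were seen, was 0.81 to 0.93 in mutants and 0.76 to 0.88 in controls, a difference of 0.027. Because Runx2 was selected for its closeness to Alpl, a nearly constant ratio follows from the selection, and the ratio is a description only. The log2 ratio of Phospho1 to Runx2 was -6.08 to -5.60 in mutants and -5.45 to -4.09 in controls, without overlap. Phex to Runx2 was -6.06 to -4.62 in mutants and -6.05 to -3.46 in controls. Relative to Sp7, a later osteoblast factor, Phospho1 was at -5.77 to -4.78 in mutants and -5.34 to -4.24 in controls, which overlapped. Alpl to Sp7 was 0.90 to 1.68 in mutants and 0.59 to 1.09 in controls, which also overlapped, with a difference of 0.40, so the ratio of Alpl to Sp7 was less even than that to the selected Runx2.

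**Figure D3:**
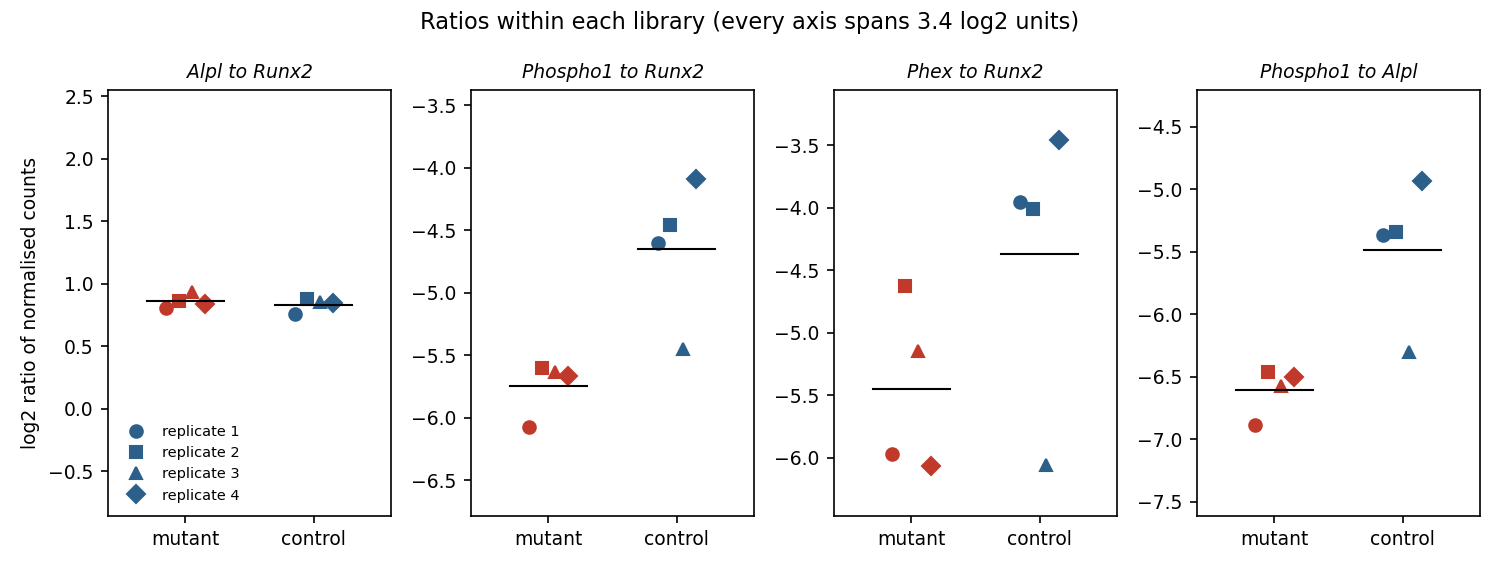
Log2 ratio of normalised counts (y axes, each spanning 3.4 units) in 4 mutant and 4 control libraries (points; lines are means). Alpl to Runx2 was 0.81 to 0.93 in mutants and 0.76 to 0.88 in controls, Runx2 having been selected as the gene likest Alpl. Phospho1 to Runx2 and Phospho1 to Alpl were lower in every mutant than in any control.

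The genes likest Phospho1 were Sgms2 at 0.245, Smpd3 at 0.345, Dkk1 at 0.359, Ifitm5 at 0.360 and Syndig1 at 0.388. Sgms2 makes sphingomyelin and Smpd3 breaks it down into ceramide and phosphocholine, the substrate of PHOSPHO1, and Ifitm5 is an osteoblast membrane protein. Sgms2 had 627.2, 441, 425.5 and 853.7 normalised counts in mutants, against 1844.3, 1574.6, 796.1 and 1699.9 in controls. Control 3 was its lowest control and lay within the mutant range. The gene likest Phex was Hmgb1, a chromatin protein gene with many processed copies in the genome and therefore of uncertain count, at 0.143. Hmgb1 had 362.7, 314.2, 309.7 and 343.9 in mutants, against 1403.4, 1397.9, 341.6 and 1374.9 in controls. Like Phex, it was low in all mutants and in control 3, the pattern for which it was selected. Cgref1, Chgb, Itga10 and Rn7sk followed at 0.310 to 0.463, and Phospho1 stood at 0.503 from Phex. The genes likest Enpp1, Tcerg1l, Kif9, Ppm1j, Upp2 and Lrrc51, stood at 0.347 to 0.411.

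**Figure D4:**
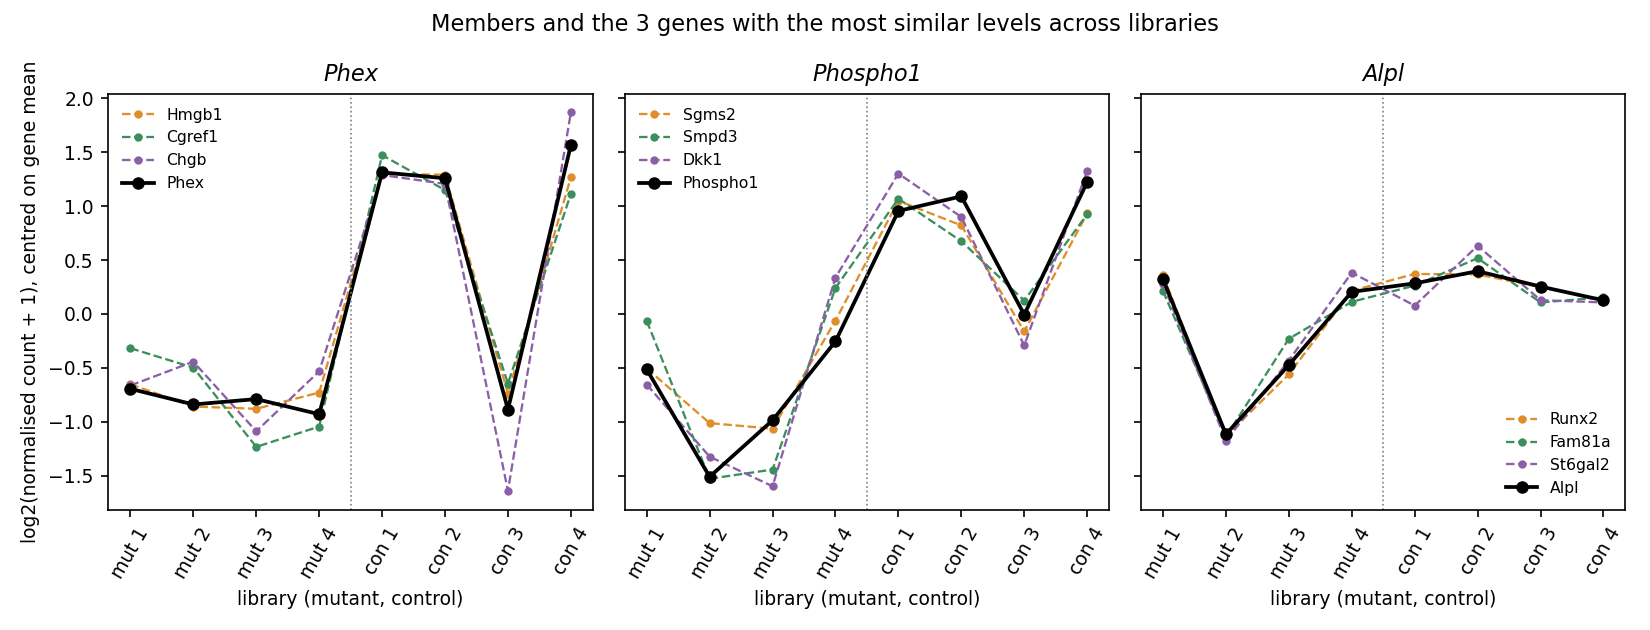
Log2(normalised count + 1), centred on each gene's mean (y axis), in 4 mutant and 4 control libraries (x axis) for Phex, Phospho1 and Alpl (black) and the 3 genes with the smallest distance from each (colours; lines only join the points of a gene). Phex was low in control 3, Phospho1 was lowest in mutant 2, and Alpl and Runx2 were low in mutants 2 and 3.

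The wider pathway was read from 5 lists with 59 genes, of which 48 were tested. The lists were chosen with earlier results of these data known. Their counts beside the shares of all genes, here and below, are therefore a description only. None of the 48 passed the limma test, 31 had a lower and 17 a higher mean in mutants, and 12 had an unadjusted p under 0.05, against 6.57% of all tested genes. Their median log2 difference was -0.040. The groups did not overlap for 3 that were lower (Ibsp, Panx3 and Bgn), against 1.91% of all tested genes, and for 2 that were higher (Abcc6 and Slc25a3), against 1.86%.

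Phosphate carriers beyond the PiT pair were 8 genes, of which 4 were tested, with 1 lower, 3 higher and a median of 0.18. The kidney and gut carrier genes Slc34a2 and Slc34a3, and Slc17a1, were at 0 in all libraries, and Slc34a1 was too low to test. Slc25a3, the mitochondrial phosphate carrier, had 8298.7, 8358.1, 8499.1 and 8822 normalised counts in mutants, against 8237.4, 7645.5, 8181 and 7903.5 in controls. Xpr1, the phosphate exporter, averaged 2300 ± 143 in mutants and 2340 ± 179 in controls. Slc37a2, a sugar-phosphate exchanger, and Slc17a7, a vesicular glutamate transporter, differed by 0.27 and 0.86 with SEs of 0.335 and 1.06. Without mutant 2 the Slc17a7 difference was -0.11.

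In the hormone axis that sets systemic phosphate, 13 of 15 genes were tested, with 7 lower, 6 higher and a median of -0.01. Fgf23, the phosphate-lowering hormone of bone, was too low to test, and Cyp24a1, the vitamin D hydroxylase, was at 0 in all libraries. Mepe, a matrix phosphoprotein of bone, had 0, 0, 1.9 and 27.3 normalised counts in mutants, against 108.6, 38.1, 10.3 and 68.7 in controls. Its groups overlapped through mutant 4 and control 3, and its log2 difference of -3.83 depends on the pseudocount, with -2.10 at a pseudocount of 8. Dmp1, a related protein of osteocytes, had 18.5, 21.8, 24.1 and 30.3 in mutants, against 178.9, 54.7, 21.5 and 34.4 in controls. Its log2 difference was -1.13, and -0.54 without control 1. Pth1r, the parathyroid hormone receptor, differed by -0.28, and Fam20c, the kinase that phosphorylates secreted mineral-binding proteins, by 0.30.

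For pyrophosphate and extracellular nucleotides, all 12 genes were tested, with 6 lower, 6 higher and a median of 0.01. Panx3, a channel that releases ATP, had 695.3, 199.7, 297.2 and 857.7 normalised counts in mutants, against 1610, 1185.1, 945.9 and 1130.3 in controls. Abcc6, a transporter needed for pyrophosphate release from liver, had 37.9, 37.9, 11.6 and 25.3 in mutants, against 0, 0, 6.2 and 5.9 in controls. Panx3 lay below and Abcc6 above its controls in every mutant, with log2 differences of -1.46 (SE 0.381) and 3.33 (SE 0.883), both at a limma adjusted p of 0.751. With 2 controls at 0, the size for Abcc6 depends on the pseudocount, and it was 1.69 with a pseudocount of 8. Enpp2, which makes lysophosphatidic acid, differed by 0.30, and Nt5e, which frees phosphate from AMP, by -0.37.

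The phosphocholine and matrix vesicle list had 11 of 12 genes tested, with 9 lower, 2 higher and a median of -0.08. Sgms2 differed by -1.32 (SE 0.270, limma adjusted p = 0.553) and Smpd3 by -1.40 (SE 0.364, limma adjusted p = 0.751). Without control 3, Sgms2 differed by -1.59 and passed (limma adjusted p = 0.0252). Smpd3 had 1670.6, 604.8, 641.6 and 2064.4 normalised counts in mutants, against 3663, 2788, 1903.1 and 3315.4 in controls. Only mutant 4 reached the control range, above control 3. Chka, the choline kinase that makes phosphocholine, differed by 0.27, and the choline transporter Slc44a1 by -0.16.

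The mineral-binding matrix list had 10 of 14 genes tested, with 10 lower, 0 higher and a median of -0.34, while 50% of all tested genes had a lower mean. Ibsp, bone sialoprotein, had 2434.9, 726.9, 1485.8 and 5680.4 normalised counts in mutants, against 23279, 19063.8, 6533.3 and 17749.4 in controls. Every mutant lay below every control, with control 3 the lowest of the controls. The log2 difference was -2.94 (limma adjusted p = 0.267). Without mutant 4 it was -3.45 and passed (limma adjusted p = 0.0207), in a fit that called 8 genes. No other fit with 1 library left out called Ibsp, and its limma adjusted p reached 0.927 among them. Sparc, a collagen-binding matrix protein, and Bgn, the proteoglycan biglycan, differed by -0.27 and -0.31. Several genes of this list are themselves osteoblast genes, whose marker levels across libraries are given above.

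**Figure D5:**
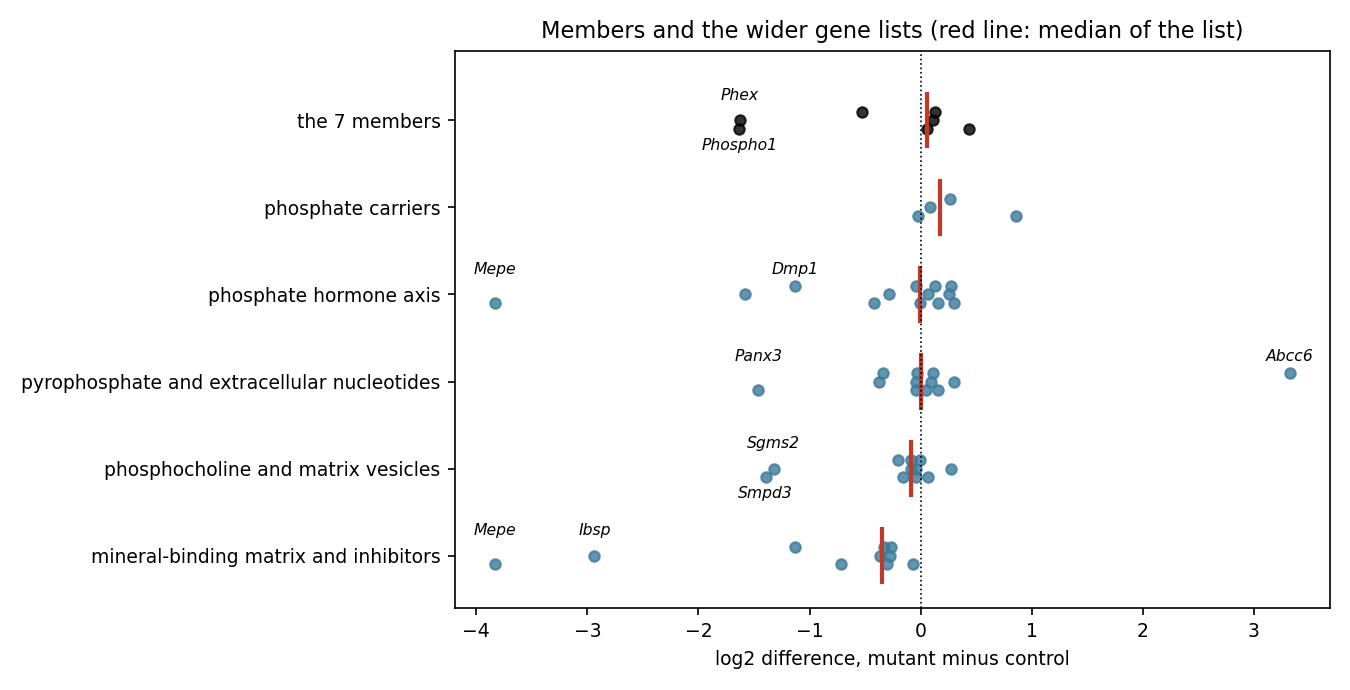
Log2 difference, mutant minus control (x axis), of the 7 genes (black) and of the tested genes of the 5 wider lists (blue points), with the median of each in red. Medians were 0.05 for the 7 genes, 0.18 for the carriers, -0.01, 0.01 and -0.08 for the hormone, pyrophosphate and phosphocholine lists, and -0.34 for the mineral-binding matrix list.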

How the data were processed

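RNA from 8 libraries of posterior palatal shelf was measured by the authors by sequencing, and their table of 55536 genes gave 2 values per library: a signal, which is a normalised count, and a stabilised value close to a log2 scale. Per the submitters' processing notes, STAR 2.7.2 and DESeq2 were used. No source used here names the counting tool, strand setting, annotation or build. Gene positions in the table equalled the GENCODE annotation of GRCm38 for 95.2% of 52489 IDs. The deposited normalised counts had been scaled by the authors with a size factor of 0.939 to 1.06 for each library: 100% of values between 50 and 5000 came out as whole reads within 0.06 reads. The deposited log2 stabilised values have a floor of 9.47 and served in 1 alternative only.

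Groups came from the genotype labels, and replicate numbers follow the order in which the samples are listed. The main test was limma 3.58.1 in R 4.3.3 with an intensity trend, two-sided, on log2(normalised count + 1), for genes with at least 10 normalised counts in at least 4 of 8 libraries, with Benjamini-Hochberg adjustment at 0.05 over 16647 genes. Single genes also got an exact permutation test of mean log2 values. The limma fit, and not the permutation test, was tried on simulated data with known changes. The spread of the simulated data was set by a formula and not taken from these libraries. Other settings tried were edgeR 4.0.16 and DESeq2 1.42.0 on recovered reads, upper-quartile and trimmed-mean scaling, library weights, pseudocounts of 8 and 0.5, a filter at a mean of 50 or none, a block for the title's first number, and leaving out each library. The stabilised values and leaving out control 3 with mutant 2 were chosen after seeing the data.

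The 7 genes, the 5 wider lists and the 9 cell type marker lists were chosen with earlier results of these data known. Genes named were the 7, Yap1, Wwtr1, up to 4 tested genes per wider list with the smallest p, and the 5 genes with the likest levels (mean of at least 50, no predicted genes) for each of the 7 that spanned more than 1 log2 unit; other named genes were chosen after seeing values. Col2a1 had 12072 ± 4318 normalised counts in mutants and 17894 ± 4116 in controls (SD, n = 4 each). Promoter windows are from RefSeq, for 6 of the 7 genes. Python 3.11.15 with pandas 2.3.3, numpy 2.4.6 and matplotlib 3.10.9 made the tables and figures.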

Additional observations from a re-analysis of the deposited data

Results flagged for a closer look

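In 48 genes, the 4 mutants and the 4 controls were each searched for a library far from the others on the log2 scale, 96 groups in all. A library stood apart in 9. Chance gives about 1 group in 20 where groups are independent and unselected. These genes were selected, some for likeness to each other, so the 9 cannot be set against that share.

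In control 3, Phex had 59.5 normalised counts, far below the other controls. The same library stood low among controls for Hmgb1 at 341.6, Cgref1 at 65.7 and Itga10 at 97.5, which were named for their likeness to Phex and so are not independent of it, and for Sparc at 41943.1. In mutant 2, Slc20a1 at 2171.2 and Fam20c at 758.1 stood above the other mutants, and Slc44a1 at 3484.8 stood below them. In control 2, St6gal2 at 2298.9 stood above the other controls.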

How the results depend on the processing

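Over the 20 alternatives of the test, Phex, Phospho1 and Alpl kept a lower mean in mutants and Slc20a2 a higher one, and the limma counts of genes called were 4 in the main comparison, all lower. DESeq2 called 31 genes, 28 lower and 3 higher, with 2 of the 7 (Phex at -1.90 and Phospho1 at -1.65) and 1 wider list gene, Ibsp. Leaving out 1 library gave 0 to 11 genes called, with 0 without mutant 3, control 2 or control 4, 8 without mutant 4 and 11 without control 3. It gave 0 to 1 of the 7, Phex without control 3, and 0 to 1 wider list genes, against 0 and 0 with all libraries. Leaving out control 3 and mutant 2 together gave 13, 1 and 2, with Phex at -2.18 and Slc20a1 at -0.0031. With 1 library left out, Phex ranged from -2.19 to -1.38, Enpp1 from -0.0010 to 0.85, Slc20a1 from -0.029 to 0.093, Slc17a7 from -0.11 to 1.91, Xpr1 from -0.060 to 0.025, Ppm1j from -0.39 to 0.26 and Upp2 from -0.16 to 0.34. Within the libraries numbered 3602, Phex was at 0.072 and Ank at -0.014. On the authors' stabilised values, a compressed scale, Phex was at -0.36 and Phospho1 at -0.30. The cause of these changes was not tested.

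Taking the first number of the titles as a replicate block gave 6 genes called, 0 of the 7 and 1 wider list gene, Sgms2. Under the block Phex was at -1.13 (limma adjusted p = 0.725), Phospho1 at -1.33 (limma adjusted p = 0.560), Slc17a7 at -0.21, Slc37a2 at -0.072 and Ppm1j at 0.083. Only 2 numbers occur in both groups, and the deviations of same-numbered mutants and controls correlated at -0.031 to 0.204, so a pairing is not established. Per kilobase of the longest transcript, Alpl stood at 2490, Slc20a2 at 639, Slc20a1 at 542 and Enpp1 at 12.3 normalised counts. Precision is limited by 4 libraries a group.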

Other observations

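These values were chosen after they were seen. Spp1, osteopontin, a matrix protein that binds mineral, had 98.2, 39.8, 28.9 and 29.3 normalised counts in mutants, against 193.8, 1, 113.9 and 97.2 in controls. Its level in control 2 was far below every other library. Slc17a7, the vesicular glutamate transporter, had 31.1, 131.6, 10.6 and 1 in mutants, against 11.7, 4.9, 14.4 and 6.9 in controls, with mutant 2 the highest and mutant 1 also above every control. Fgf23 reached at most 6.8 in mutants and 6.9 in controls.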
